A study of Mus musculus with 16 samples.

Results

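Excitation-contraction coupling is the step by which a voltage change at the muscle cell surface releases calcium from an internal store, and 10 genes that encode this machinery and the store were followed in C2C12, an established line of mouse myoblasts, the muscle precursor cells that stop dividing and fuse into myotubes once serum is lowered. They were chosen by name from a table of 35275 genes: Ryr1, Cacna1s, Cacnb1, Cacng1, Casq1, Casq2, Atp2a1, Atp2a2, Sln and Stac3. All 10 were in the table, and 7 passed the filter on low values (a mean of at least 0.5 FPKM, fragments scaled to gene length and library depth, over the 16 libraries). Cacna1s, Casq1 and Sln did not pass.

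Poly(A) RNA was sequenced from 2 wild-type control populations and from 2 triple-knockout (tKO) clones, which lack miR-206 together with miR-1a-1 and its second-locus counterpart miR-1a-2. The microRNAs themselves were not analysed here, so the deletions were not checked at the RNA level. All cells, controls included, were described as PAX7 negative C2C12. Each line was sampled in growth medium with 20% fetal bovine serum (GM) and after 3 days in 2% horse serum (DM3), as libraries named BR1 and BR2. Genotype and stage thus gave 4 groups of 4 libraries, each from 2 lines. Each tKO line was 1 clone, so a property of the clones and the knockout cannot be told apart. What separates BR1 from BR2 was not stated, so the p-values measure the spread between these libraries, which may in part be technical.

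In skeletal muscle the voltage sensor of the surface membrane is the dihydropyridine receptor, a calcium channel whose pore-forming subunit is encoded by Cacna1s and whose accessory subunits include those of Cacnb1 and Cacng1. The sensor is coupled mechanically, with the adaptor protein Stac3, to the ryanodine receptor Ryr1, the release channel of the sarcoplasmic reticulum. Calsequestrins (Casq1 and Casq2) buffer calcium inside the reticulum, the pumps SERCA1 (Atp2a1) and SERCA2 (Atp2a2) refill it, and the small membrane protein sarcolipin (Sln) inhibits the pumps. In adult striated muscle Casq1 and Atp2a1 are the main forms of fast fibres. There Atp2a2 is the main pump of slow fibres and the heart, and Casq2 the main calsequestrin of the heart. Fibre type and cardiac identity were not read from these genes here.

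The deleted microRNAs are muscle-specific and pair with messenger RNAs through their seed (bases 2 to 8), which is shared by miR-206 and the miR-1 family. The mature miR-206 arm that carries it is printed because the knockout is defined by it, with the seed in capitals (RefSeq, GRCm38.p6, chr1:20679055-20679076, + strand).
mmu-miR-206-3p: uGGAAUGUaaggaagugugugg
Sites for this seed (ACATTCCA, or its 7-base forms ACATTCC and CATTCCA) were searched on the sense strand of each gene's longest annotated 3′ UTR in GENCODE M21. None of the 10 genes held one of these words, against 18.96% of the 10806 UTRs of tested genes. The UTRs searched were 114 bases (Ryr1) to 1393 bases (Cacnb1) long. The search says only that these letters are not in these windows.

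Promoter windows from 250 bases before to 50 after the annotated start were found for 6 of the 10 genes (RefSeq, GRCm38.p6). Those of Ryr1, Atp2a1 and Casq2 are shown because Ryr1 and Atp2a1 rose most in control differentiation and were lower in the knockout, while Casq2 rose without a called knockout difference. Capitals mark CANNTG, the E-box core that MyoD-type factors bind, and the MEF2 motif, each searched on both strands. CAGCTG, 1 form of CANNTG, was counted separately.
Ryr1 (chr7:29125102-29125401, - strand): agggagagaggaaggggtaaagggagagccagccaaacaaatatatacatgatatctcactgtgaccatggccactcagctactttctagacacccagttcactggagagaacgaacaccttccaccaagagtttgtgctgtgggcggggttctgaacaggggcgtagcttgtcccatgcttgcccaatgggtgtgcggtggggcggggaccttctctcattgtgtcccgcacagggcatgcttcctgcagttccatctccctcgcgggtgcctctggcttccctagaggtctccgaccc
Atp2a1 (chr7:126463024-126463323, - strand): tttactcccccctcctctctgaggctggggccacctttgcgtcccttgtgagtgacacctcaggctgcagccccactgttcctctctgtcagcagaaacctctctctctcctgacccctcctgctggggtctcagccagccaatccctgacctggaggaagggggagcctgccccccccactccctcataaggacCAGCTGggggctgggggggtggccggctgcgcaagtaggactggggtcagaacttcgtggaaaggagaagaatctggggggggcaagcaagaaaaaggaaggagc
Casq2 (chr3:102086165-102086464, + strand): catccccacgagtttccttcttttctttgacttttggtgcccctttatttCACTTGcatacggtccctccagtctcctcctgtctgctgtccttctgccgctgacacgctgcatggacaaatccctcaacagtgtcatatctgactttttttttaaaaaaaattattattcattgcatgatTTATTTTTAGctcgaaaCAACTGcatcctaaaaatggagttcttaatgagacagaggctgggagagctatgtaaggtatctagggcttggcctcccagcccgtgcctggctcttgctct
The window of Ryr1 held 0 matches to either motif. The Atp2a1 window held 1 CANNTG, which was a CAGCTG starting 55 bases before the start. The Casq2 window held 2 CANNTG and 1 MEF2 motif. Of 32851 promoter windows of this length, 72.31% held a CANNTG, 16.3% a CAGCTG and 3.187% a MEF2 motif, so that E-box matches are the usual state of such windows.

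Depth ran from 22642563 to 56585952 fragments per library, recovered from the FPKM steps, with control DM3 the deepest group (31834264 to 56585952) and tKO DM3 at 27714736 to 32102386. The identity of the cells was read from 8 skeletal muscle markers (Des, Myod1, Myog, Myh3, Tmem8c, Ckm, Acta1 and Tnnt3). All 8 rose from GM to DM3 in both genotypes, where 23.2% (control) and 24.9% (tKO) of all tested genes rose. In GM Myod1 had 0 fragments in all 4 control libraries and a mean of 0.0196 FPKM in tKO libraries. Myog, Myh3, Tmem8c and Ckm had GM means of at most 0.153 FPKM. These genes passed the filter through their DM3 level, so their rise is no support. The reading in GM rests mainly on Des (means 39.5 and 22.1 FPKM in control and tKO) and Acta1 (8.48 and 31.3). Between genotypes in DM3 0 of 8 were called by limma, where 3.38% of all tested genes were called, but their differences were not small: Myh3 was at 1.47 (limma adjusted p = 0.0511), Myog at 0.90 (0.253), Tnnt3 at -0.99 without overlap (0.061) and Des at -1.14 (0.174) on the log2 scale. Among cardiac markers Myh6, Nppa and Tbx5 stayed at or below 0.149 FPKM, while Nkx2-5 was present in every library at 8.34 to 22.9 FPKM, and Nppb, Tnni3 and Myl7 reached at most 2.66, 1.56 and 5.39 FPKM. The blood and endothelial markers Ptprc, Pecam1 and Cdh5 stayed at or below 0.157 FPKM. In these bulk libraries fewer differentiated cells and less RNA per cell cannot be told apart.

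**Figure D1:**
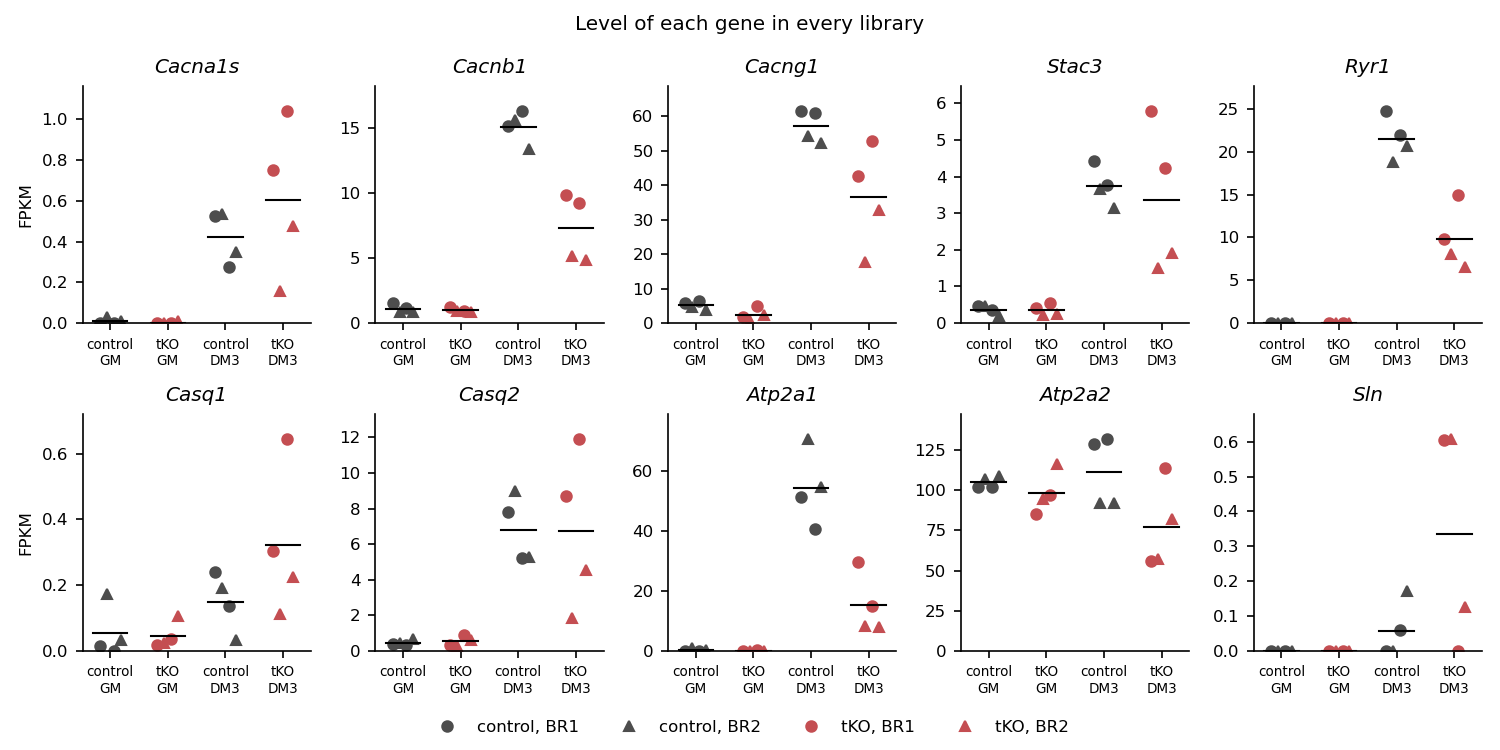
FPKM of each of the 10 genes in every library (linear axis, scaled separately for each gene), by group, with 1 point per library. Ryr1 and Atp2a1 move from below 1 FPKM in GM to between 6.57 and 70.6 FPKM in DM3, whereas Atp2a2 is at 55.7 FPKM or more in every library.

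Differentiation raised 6 of the 7 tested genes in control cells, where 23.2% of all 11832 tested genes rose. The same 6 rose in tKO cells, where the background was 24.9%. Since most of these genes passed the filter through their DM3 level, the count itself is no support. The exception in both genotypes was Atp2a2, which was already high in GM. Differences are in log2(FPKM + 1), where the added 1 makes changes of low genes look smaller than they are, with the standard error (SE) and the Benjamini-Hochberg adjusted p of limma over all tested genes. The median of all tested genes was -0.15 (control) and -0.12 (tKO) on this scale and 0.01 in both after median-of-ratios scaling, under which the same directions held.

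Ryr1 went from 1 to 21 fragments per library in GM to 3143 to 16381 in DM3. In control GM it had 0.00745, 0.055, 0.00772 and 0.022 FPKM (population 1 BR1 and BR2, then population 2 BR1 and BR2, the order used throughout, with clones for tKO), which is 4 to 21 fragments per library. In tKO GM it had 0.0022, 0.0345, 0.0124 and 0.0169 FPKM. The gene was thus close to silent in growth medium in both genotypes, and the GM groups overlapped.

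In control DM3 Ryr1 reached 24.7, 18.8, 21.9 and 20.6 FPKM, a mean of 21.5 ± 2.46 (SD, n = 4). In tKO DM3 it reached 9.82, 8.05, 14.9 and 6.57 FPKM, a mean of 9.83 ± 3.62 (SD, n = 4). Every DM3 library lay far above every GM library, and each tKO DM3 library lay below each control DM3 library. The rise was 4.45 (SE 0.169, limma adjusted p = 1.14e-11) in control and 3.36 (limma adjusted p = 3.70e-10) in tKO cells. The tKO mean in DM3 was 2.19-fold lower (log2 difference -1.11, SE 0.169, limma adjusted p = 0.00106).

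Atp2a1, the SERCA1 pump of fast fibres, followed the same outline. Control GM libraries had 0.0576, 0.81, 0.0512 and 0.133 FPKM, and tKO GM libraries 0.0873, 0.0889, 0.183 and 0.0187 FPKM. Control DM3 libraries had 51.2, 70.6, 40.6 and 54.5 FPKM (54.2 ± 12.4, SD, n = 4). The tKO DM3 libraries had 29.6, 8.39, 14.8 and 8.10 FPKM (15.2 ± 10.1, SD, n = 4). The highest of these, clone 1 BR1, was still below the lowest control. Clone 1 alone spanned 8.39 to 29.6 FPKM between its BR1 and BR2 libraries.

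The rise of Atp2a1 in control cells was 5.46 (SE 0.303, limma adjusted p = 1.23e-09), the steepest of the 7 genes on this scale, and in tKO cells 3.70 (limma adjusted p = 4.91e-08). In DM3 its mean was 3.56-fold lower in tKO than in control cells (log2 difference -1.93, SE 0.303, limma adjusted p = 0.0014). This was the widest knockout gap of the 7 genes. Atp2a1 overlaps Rabep2 on the other strand (5.78 FPKM on average), and the strand setting of the counting is not given in the sources used here. Since Atp2a1 was below 1 FPKM in all GM libraries, reads from its neighbour add at most that much there.

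Cacnb1, the cytoplasmic beta subunit of the voltage sensor, was present before differentiation, at 1.54, 0.83, 1.14 and 0.868 FPKM in control GM and 1.20, 0.936, 0.901 and 0.889 FPKM in tKO GM. In control DM3 it had 15.2, 15.6, 16.3 and 13.4 FPKM (15.1 ± 1.25, SD, n = 4). In tKO DM3 it had 9.91, 5.2, 9.26 and 4.88 FPKM (7.31 ± 2.64, SD, n = 4). Both tKO clones were near 9 to 10 FPKM in BR1 and near 5 FPKM in BR2, all below the control range.

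Cacnb1 rose by 2.95 in control cells (SE 0.183, limma adjusted p = 3.48e-09) and by 2.01 in tKO cells (limma adjusted p = 1.38e-07). Its DM3 mean was 2.07-fold lower in the knockout (log2 difference -1.01, SE 0.183, limma adjusted p = 0.00495). With only the 8 DM3 libraries in the fit this difference was not called (limma adjusted p = 0.0649).

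Knockout cells in DM3 therefore had less Ryr1, Cacnb1 and Atp2a1 RNA: 3 of the 7 tested genes were lower, where 1.36% of all tested genes were called lower, and 0 were higher, where 2.02% were. In the same 3 genes the groups did not overlap, as for 4.3% of all tested genes in this direction. All 7 differences were negative, with a median of -0.73 against 0.01 over all tested genes. Without the libraries of control population 1 the 3 differences were -1.10, -0.98 and -1.75, none of them called (limma adjusted p = 0.0983, 0.209 and 0.101). Within the BR1 libraries alone 0 of the 7 were called, where 29 of all tested genes were called lower. In the fit of all libraries that number was 161, so the 0 within BR1 says little. Within BR2 alone 3 of the 7 were called, and the number over all tested genes is not given here.

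**Figure D2:**
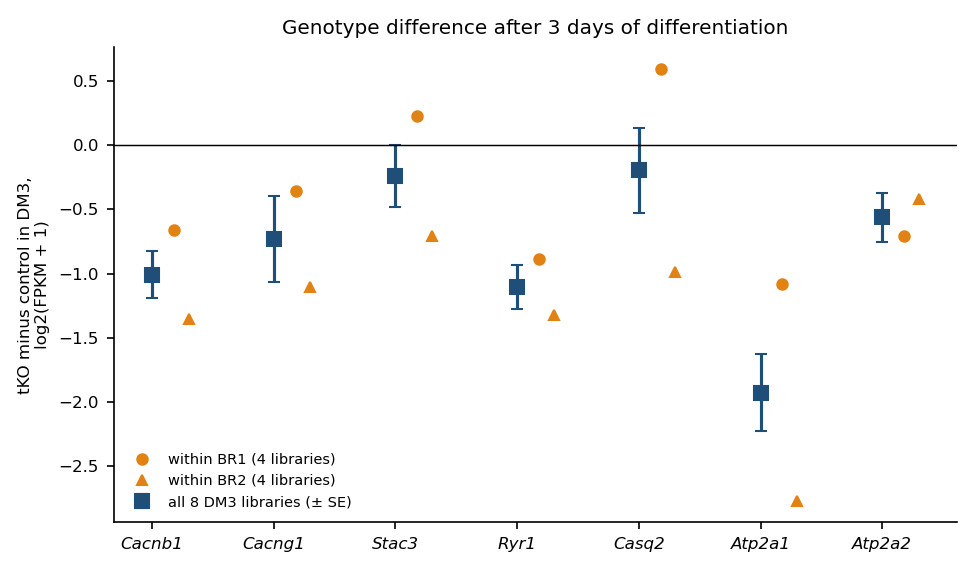
Difference tKO minus control in DM3 on the log2(FPKM + 1) scale for the 7 tested genes: all 8 libraries with the SE, and the value within BR1 and within BR2 (4 libraries each). Ryr1, Cacnb1 and Atp2a1 lie below 0 in all 3 readings, while Casq2 and Stac3 lie on opposite sides of 0 in BR1 and BR2.

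Cacng1, the gamma subunit of the voltage sensor, was the most abundant per length of the 4 voltage sensor and adaptor genes among the members. Control GM libraries had 5.84, 4.77, 6.43 and 3.69 FPKM and tKO GM libraries 1.81, 0.566, 4.98 and 2.21 FPKM. The GM means, 5.18 ± 1.21 and 2.39 ± 1.86 (SD, n = 4 each), differed by -1.01 (SE 0.336, limma adjusted p = 0.129), which was not called. The groups overlapped through clone 2 BR1 at 4.98 FPKM. Without that library the difference was -1.33 and was called. Within BR1 the GM difference was -0.80 and within BR2 -1.21, each without overlap but with 2 libraries a side. In GM 0 of the 7 genes were called by limma, where the background was 2.06%. Cacng1 was the 1 gene with an unadjusted p under 0.05, and limma with voom on the recovered fragments also called 0.

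In DM3 Cacng1 had 61.5, 54.4, 61.0 and 52.2 FPKM in control cells and 42.8, 17.7, 52.8 and 32.9 FPKM in tKO cells. Only clone 2 BR1 reached the control range. The rise was 3.25 in control (SE 0.336, limma adjusted p = 6.06e-07) and 3.53 in tKO cells (limma adjusted p = 2.40e-07). The DM3 genotype difference of -0.73 (SE 0.336) was not called (limma adjusted p = 0.282).

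Stac3, the adaptor that links the sensor to the release channel, was low throughout. It had 0.463, 0.472, 0.348 and 0.189 FPKM in control GM and 0.415, 0.222, 0.534 and 0.236 FPKM in tKO GM. In DM3 it had 4.42, 3.66, 3.77 and 3.15 FPKM in control cells and 5.78, 1.5, 4.23 and 1.90 FPKM in tKO cells. The tKO values surrounded the control range, with both BR1 libraries at or above its upper part and both BR2 libraries below it. Stac3 rose by 1.79 (control, SE 0.239, limma adjusted p = 8.15e-06) and 1.57 (tKO, limma adjusted p = 2.92e-05), and its genotype difference in DM3 was -0.24 (SE 0.239, limma adjusted p = 0.66).

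Cacna1s, the pore and voltage-sensing subunit itself, stayed far below its partners. In GM it was at 0 to 5 fragments per library. In DM3 control libraries had 0.528, 0.534, 0.276 and 0.349 FPKM (126, 189, 55 and 74 fragments) and tKO libraries 0.752, 0.156, 1.04 and 0.478 FPKM (151, 28, 180 and 93 fragments). The DM3 libraries exceeded every GM library in both genotypes (exact two-sided permutation p = 0.0286, the smallest 4 against 4 libraries allow, 0.114 after Benjamini-Hochberg adjustment over 12 tests). The genotypes overlapped in DM3 (exact permutation p = 0.486, adjusted 0.648).

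Per length, Cacna1s stood at 2.14%, 2.84%, 1.26% and 1.69% of the Ryr1 level in control DM3 and at 7.66%, 1.93%, 6.98% and 7.27% in tKO DM3. In 3 of 4 tKO libraries the ratio was above the control range, and clone 1 BR2 lay within it. The means, 1.98% ± 0.673 and 5.96% ± 2.70 (SD, n = 4), did not pass an exact two-sided permutation test (p = 0.0857, adjusted 0.189 over 11 measures). Among the sensor genes the control DM3 order per length was Cacng1 (57.3 ± 4.67 FPKM), Cacnb1 (15.1 ± 1.25), Stac3 (3.75 ± 0.522) and Cacna1s (0.422 ± 0.129), each SD with n = 4, and the ranges of neighbours did not overlap. In tKO DM3 the means kept this order, but the ranges of Cacnb1 and Stac3 overlapped.

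Of the calsequestrins, Casq2 was the form present. It had 0.369, 0.441, 0.348 and 0.685 FPKM in control GM and 0.330, 0.276, 0.910 and 0.597 FPKM in tKO GM. In DM3 control libraries had 7.81, 9.01, 5.21 and 5.25 FPKM, and tKO libraries 8.68, 1.86, 11.9 and 4.54 FPKM. The tKO libraries were spread from below to above the control range. Casq2 rose by 2.39 in control (SE 0.334, limma adjusted p = 1.36e-05) and 2.14 in tKO cells (limma adjusted p = 3.93e-05). Its means in DM3, 6.82 ± 1.90 and 6.74 ± 4.44 (SD, n = 4), gave a difference of -0.20 (SE 0.334, limma adjusted p = 0.823).

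Casq1, the fast-fibre calsequestrin, stayed below 1 FPKM. It had 0 to 8 fragments per GM library, 17, 20, 8 and 2 fragments in control DM3 and 18, 6, 33 and 13 fragments in tKO DM3. The DM3 levels were 0.241, 0.191, 0.136 and 0.0320 FPKM in control and 0.304, 0.113, 0.645 and 0.226 FPKM in tKO cells, which overlapped (exact two-sided permutation p = 0.229, adjusted 0.441). Per length Casq1 was 2.06% ± 1.04 of the 2 calsequestrins in control DM3 and 4.75% ± 0.993 in tKO DM3 (SD, n = 4). These groups did not overlap (exact permutation p = 0.0286, adjusted 0.157 over 11 measures), but the numerator rests on 33 fragments at most. Nearly all calsequestrin RNA in every DM3 library was thus Casq2.

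Atp2a2, the SERCA2 pump gene, was the highest of the 10 in every library. It had 102, 107, 102 and 109 FPKM in control GM and 85.3, 94.3, 97.1 and 116 FPKM in tKO GM. In DM3 it had 129, 92.0, 132 and 91.9 FPKM in control cells, with both BR1 libraries above both BR2 libraries. In tKO DM3 it had 55.7, 56.9, 114 and 82.2 FPKM, with both clone 1 libraries lowest.

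The change of Atp2a2 with differentiation was 0.06 in control (limma adjusted p = 0.798) and -0.40 in tKO cells (limma adjusted p = 0.084), neither called. Its genotype difference in DM3, -0.56 (SE 0.193, limma adjusted p = 0.132), was not called either, and the groups overlapped through clone 2 BR1. Without that library the DM3 genotype difference was -0.77 and was called (limma adjusted p = 0.0142), and the fall in tKO cells was called at -0.60. Atp2a2 overlaps Anapc7 on the other strand (22.5 FPKM on average), and its reads cannot be assigned by strand here.

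Together the pumps came to 180, 163, 172 and 146 FPKM in control DM3 and to 85.3, 65.3, 128 and 90.3 FPKM in tKO DM3. The groups did not overlap, at 165 ± 14.6 and 92.3 ± 26.4 FPKM (SD, n = 4; exact two-sided permutation p = 0.0286, adjusted 0.157 over 11 measures). In GM the sums were 105 ± 3.77 and 98.3 ± 12.9 FPKM. Atp2a1 made up 28.4%, 43.4%, 23.6% and 37.2% of the sum in control DM3 and 34.7%, 12.8%, 11.5% and 8.97% in tKO DM3. Clone 1 BR1 lay within the control range and the other 3 tKO libraries below it (exact permutation p = 0.0857, adjusted 0.189).

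**Figure D3:**
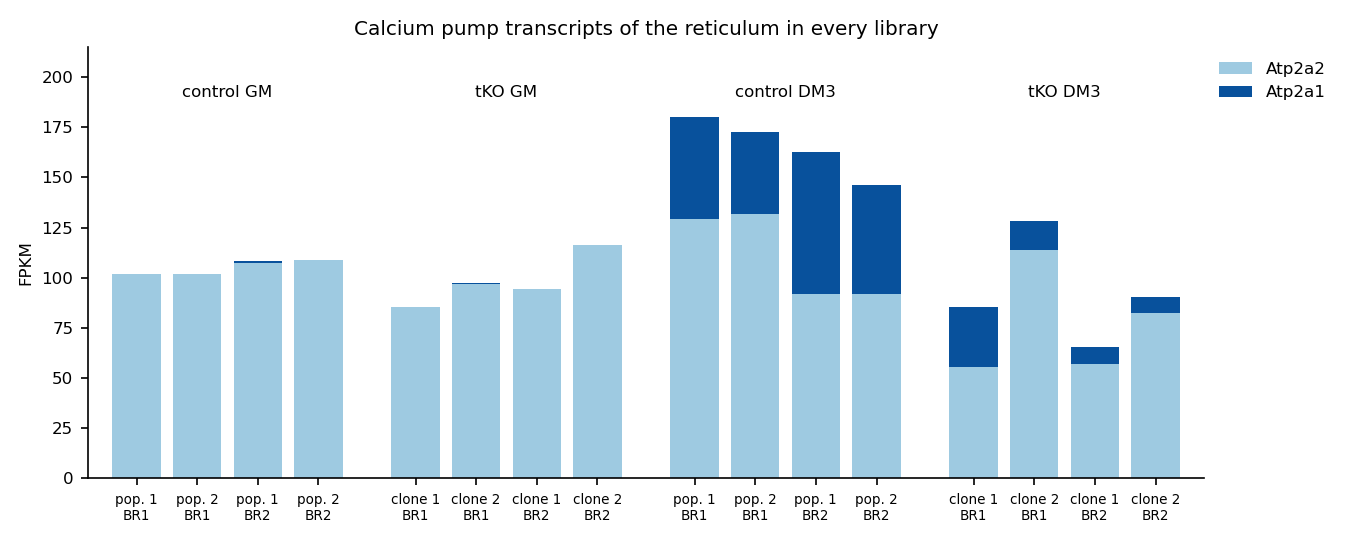
Stacked FPKM of Atp2a2 and Atp2a1 in each of the 16 libraries. In GM nearly all pump RNA is Atp2a2, in control DM3 the sum is 146 to 180 FPKM, and in tKO DM3 it is 65.3 to 128 FPKM with a smaller Atp2a1 part in 3 of 4 libraries.

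Sln, the pump inhibitor, was at 0 fragments in all 8 GM libraries. A count of 0 allows up to 3 fragments, which over the 16 libraries is 0.103 to 0.257 FPKM. In DM3 it had 0, 0, 1 and 3 fragments in control and 10, 9, 0 and 2 fragments in tKO libraries. Both clone 1 libraries thus stood above the others, at 0.605 and 0.607 FPKM (exact two-sided permutation p = 0.257, adjusted 0.441, for the genotypes in DM3). A genotype difference was not detectable at this depth.

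**Figure D4:**
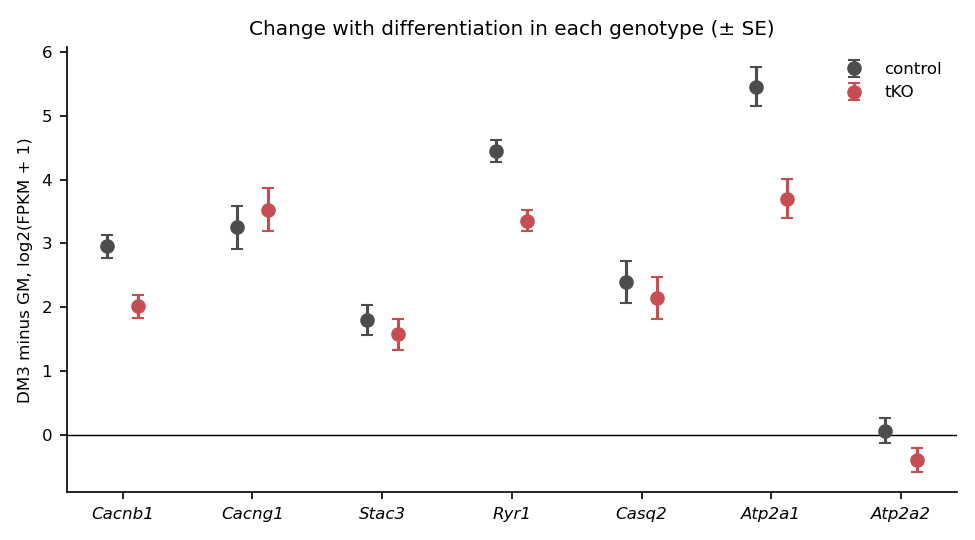
Change from GM to DM3 on the log2(FPKM + 1) scale in control and tKO cells for the 7 tested genes, with the SE. Ryr1 changes by 4.45 and 3.36, Atp2a1 by 5.46 and 3.70, and Atp2a2 by 0.06 and -0.40.

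Whether the knockout difference itself depended on the stage was tested as an interaction. It was -1.10 (SE 0.239, limma adjusted p = 0.0686) for Ryr1, -1.76 (SE 0.428, limma adjusted p = 0.114) for Atp2a1 and -0.94 (SE 0.259, limma adjusted p = 0.169) for Cacnb1. Ryr1 and Atp2a1 were below 1 FPKM in GM, where the added 1 holds any genotype difference near 0 (-0.0091 and -0.17). For them the interaction thus mostly restates the DM3 difference and cannot show that the relative difference changed with stage. For these 3 genes the unadjusted p was under 0.05, but 0 of 7 were called, against a background of 0.254%, and voom also called 0. Without tKO DM3 clone 1 BR1 3 of the 7 were called lower, and without clone 2 BR1 1.

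Several of these genes differed between BR1 and BR2 in the knockout. In tKO DM3 the BR2 libraries were lower than the BR1 libraries for 5 of the 7 genes, where 1.58% of all tested genes were called lower. These were Stac3 (-1.15, SE 0.169, limma adjusted p = 0.0121), Cacnb1 (-0.81, SE 0.137, limma adjusted p = 0.0127), Casq2 (-1.49, SE 0.325, limma adjusted p = 0.0243), Atp2a1 (-1.25, SE 0.282, limma adjusted p = 0.0265) and Ryr1 (-0.66, SE 0.172, limma adjusted p = 0.0375). Cacng1 (-0.95, limma adjusted p = 0.121) and Atp2a2 (-0.21, limma adjusted p = 0.608) were not called. The median of all tested genes was 0.14 in this comparison and -0.01 after median-of-ratios scaling, which also called 5.

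Each side of that contrast had 2 libraries, 1 per clone. The count was 3 without tKO DM3 clone 1 BR1 or clone 2 BR2, and 0 without clone 1 BR2. The Ryr1 call was lost in 11 of 16 fits with 1 library left out, and its value ran from -0.94 to -0.39 (without clone 2 BR1). In control DM3 0 of 7 genes were called between BR1 and BR2 (background 0.676%), with 0 at an unadjusted p under 0.05 and 0 with voom. The difference between the genotypes in this respect was called for 0 of 7 (background 0.00845%), with 4 at an unadjusted p under 0.05 and 0 with voom, and for 3 without clone 2 BR1. For Atp2a1 it was -1.68 (SE 0.399, limma adjusted p = 0.347), so that a different BR gap in the 2 genotypes was not established.

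The genotype values were therefore read within BR1 and within BR2, 2 libraries against 2. Ryr1 was lower by 0.89 in BR1 and by 1.32 in BR2 on the log2 scale, Cacnb1 by 0.66 and 1.36, and Atp2a1 by 1.08 and 2.77, with no overlap in any of these. Cacng1 (-0.36 and -1.11) and Atp2a2 (-0.71 and -0.42) were also lower without overlap in both. Casq2 differed by 0.60 in BR1 and by -0.99 in BR2, and Stac3 by 0.23 and -0.71, so both were above the controls or level with them in BR1 and below them in BR2. In all, 5 of 7 genes were lower without overlap in both, as were 8.72% of all tested genes. Casq2 and Stac3 were the exceptions.

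The skeletal marker level moved with BR in the same libraries. The mean log2(FPKM + 1) of the 8 markers in DM3 was 5.25, 5.41, 4.78 and 5.08 in control and 5.89, 4.67, 5.50 and 4.42 in tKO libraries. Within BR1 the tKO libraries were 0.68 above the controls, and within BR2 they were 0.70 below them, without overlap in either. The summed marker level was 890 to 1294 FPKM in control and 393 to 1258 FPKM in tKO DM3. In tKO DM3 4 of the 8 markers were called lower in BR2 by limma (Myh3, Tmem8c, Ckm and Acta1), where 1.58% of all tested genes were. Of the 8 differences 0 were positive, with a median of -0.95 against 0.14 over all tested genes. In BR1, with 2 libraries a side, the tKO marker level was the higher only as the mean of logs. The summed level overlapped there, at 1071 to 1258 FPKM in tKO and 911 to 1190 FPKM in control libraries. In BR2 the sum was lower in tKO (393 to 449 against 890 to 1294 FPKM). Ryr1, Cacnb1 and Atp2a1 were lower in tKO cells in both. The part of this marker level in the gene differences was not tested.

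**Figure D5:**
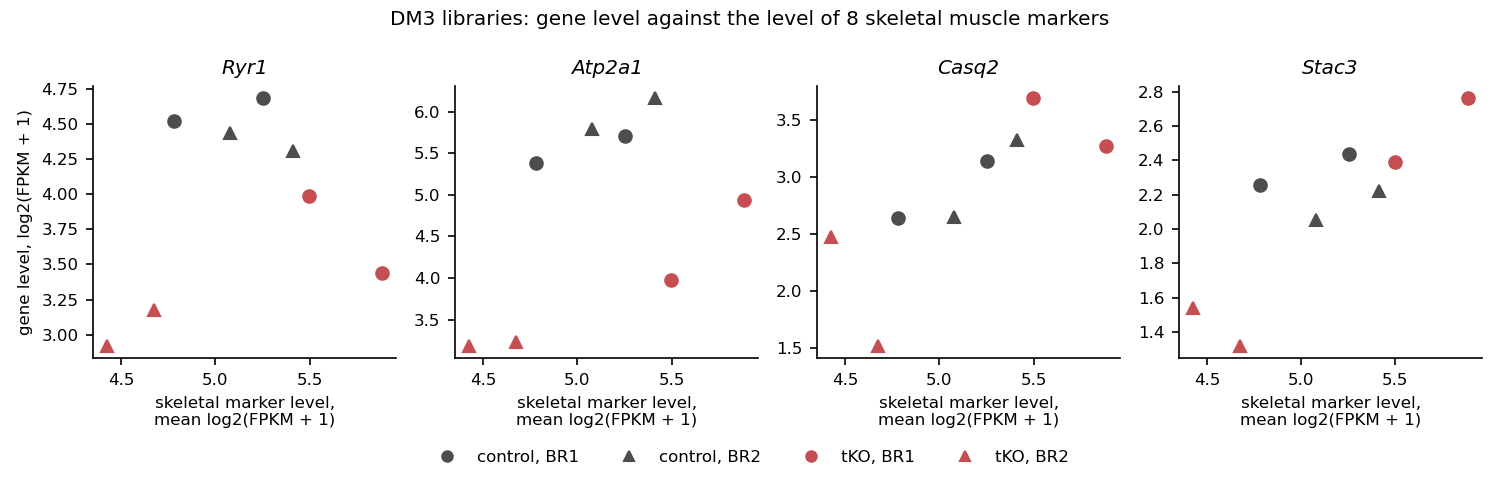
Level of Ryr1, Atp2a1, Casq2 and Stac3 against the mean level of the 8 skeletal markers in the 8 DM3 libraries, both as log2(FPKM + 1), with symbols for genotype and BR number. The tKO points of Ryr1 and Atp2a1 lie below all control points at marker levels from 4.42 to 5.89, while those of Casq2 and Stac3 lie on both sides of the controls.

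The wider pathway was followed in 53 further genes, of which 52 were in the table and 39 were tested. In DM3 0 of the 39 were called between genotypes by limma, where 3.38% of all tested genes were called. At that share a count of 0 in 39 says little. Of the 39, 10 had an unadjusted p under 0.05, and voom also called 0. Their median difference was -0.09 against 0.01 over all tested genes. The nearest to the threshold among triad genes was Srl, which encodes the luminal protein sarcalumenin (51.4 ± 4.12 FPKM in control and 33.3 ± 11.3 in tKO DM3, SD, n = 4; log2 difference -0.67, SE 0.191, limma adjusted p = 0.0688). It is named here after its value was seen.

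In GM 1 pathway gene was lower and 1 higher in the knockout, 2 of 39 against 2.06% of all tested genes. Cacnb3, a beta subunit of other voltage-gated calcium channels, had 54.2, 49.9, 56.0 and 44.6 FPKM in control GM and 21.9, 14.2, 37.3 and 28.9 FPKM in tKO GM. All tKO libraries were below all controls (log2 difference -1.05, SE 0.209, limma adjusted p = 0.0163). 1810037I17Rik was higher, with a mean of 45.0 FPKM against 30.2 in controls (log2 difference 0.57, SE 0.141, limma adjusted p = 0.047), again without overlap, but voom did not call it (adjusted p = 0.0654 with limma-voom).

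During differentiation 24 of the 39 rose and 7 fell in control cells, where 23.2% of all tested genes rose and 38.3% fell. In tKO cells 25 rose and 6 fell, where 24.9% rose and 36% fell. Some of these genes passed the filter through their DM3 level, such as Hrc (mean 0.067 FPKM in control GM and 16.4 in control DM3). The counts of rises, here and among the triad genes, are therefore no support. Of 12 tested genes of triad and reticulum structure, 11 rose in each genotype. The largest control rises were those of Jsrp1 (5.49, limma adjusted p = 3.17e-12), a junctional reticulum protein, of Srl (4.81, limma adjusted p = 1.61e-11) and of Trdn (4.20, limma adjusted p = 5.86e-10), triadin, which ties calsequestrin to the release channel. In tKO cells these 3 rose by 5.55, 4.47 and 4.69. Trdn and Jsrp1 had tKO DM3 means of 49.1 and 73.5 FPKM against 35.6 and 58.8 FPKM in controls, neither called. Over the 12 triad and reticulum genes 5 of the DM3 genotype differences were positive, with a median of -0.14. Of these genes 0 were called, where 3.38% of all tested genes were.

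Genes that fell in control cells included Itpr3 (-0.90, limma adjusted p = 6.27e-06), an inositol trisphosphate receptor of the reticulum, and Calm3 (-0.74, limma adjusted p = 8.54e-05). In tKO cells they included Orai2 (-0.82, limma adjusted p = 0.0101), a store-operated channel subunit, and Calm3 (-0.67, limma adjusted p = 0.000213). Of 9 tested release channels and regulators, 3 rose and 5 fell in each genotype, with the same background shares. Between BR1 and BR2 in tKO DM3, 3 of the 39 pathway genes were called higher in BR2, Cacnb2 and Stim2 among them. The share of all tested genes called higher is not given here. In the other direction 0 of the 39 were called, where 1.58% of all tested genes were lower. At that share a count of 0 in 39 says little.

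The genes whose profile over the 16 libraries was nearest to each tested member were found by the root mean square difference of centred log2 values, as a description. For Ryr1 they were Tmem38a (0.36), a potassium-permeable channel gene of the reticulum, Pik3ip1 (0.37) and Klhl40 (0.43). For Atp2a1 they were Srl (0.59), Klhl41 (0.60) and Pik3ip1 (0.74). Cacnb1 was nearest to Txlnb and Pygm (0.32 each) and Tsc22d3 (0.33), Casq2 to Myl4 (0.24), Gramd1a (0.32) and Hspb2 (0.33), and Stac3 to Zkscan17, Tmod1 and Gm26724 (0.22 each). Cacng1 was nearest to Tm7sf2 (0.46), Serpinb1a (0.48) and C1qtnf6 (0.51), and Atp2a2 to Cldn25 (0.15), Zscan25 and Zdhhc4 (0.17 each). Among the members the closest pair was Casq2 and Stac3 (0.41), and Ryr1 was nearest to Atp2a1 (0.60).

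Coordinates of the called genes are those deposited with the FPKM values (mm10). Ryr1 lies at chr7:29003340-29125151, Cacnb1 at chr11:98001508-98023034 and Atp2a1 at chr7:126445858-126463108, all on the - strand. FPKM values cover each gene as a whole, so no exon or isoform is resolved.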

How the data were processed

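The authors deposited 1 table of FPKM values per gene and library, with gene lengths. STAR and DESeq and the build mm10 are named, per the submitters' processing notes, without versions. The counting program, its strand setting and the annotation release are not given in the sources used here. FPKM times length gave whole fragments in 100% of values above 0 (tolerance 0.01), and these sums gave the depth, 22642563 to 56585952. Floors of 3 fragments cover counting error only.

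The members and lists were chosen with earlier results of these data known. Named genes are every member, the pathway genes called in a genotype comparison, the 3 largest differentiation changes in each direction, and the 3 nearest profiles per member. Of these, 1 pathway gene is not reported here. Groups came from sample titles. Genes with a mean of at least 0.5 FPKM (11832) were fitted as log2(FPKM + 1) with limma 3.58.1 in R 4.3.3 (4 groups, 16 libraries, trend and robust), adjusted by Benjamini-Hochberg, with calls under 0.05. BR comparisons came from 8 cells of genotype, stage and BR number. Members under the filter, and ratios added after seeing the data, had exact two-sided permutation tests (70 splits). The fit was tested on simulated data. Alternatives were another pseudocount, filter and scaling, voom, a replicate block, and leaving out libraries, lines or BR numbers.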

Additional observations from a re-analysis of the deposited data

Results flagged for a closer look

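In 3 of 38 groups of 4 libraries, 1 library stood far from the other 3. The cut-off flags about 1 in 20 groups of normally distributed values, a rate that need not hold for FPKM near 0. All 3 were in growth medium. Atp2a1 was at 0.81 FPKM (70 fragments) in control GM population 1 BR2, against 0.0512 to 0.133 FPKM in the others. Cacnb1 was at 1.20 FPKM in tKO GM clone 1 BR1, against 0.889 to 0.936 FPKM. Cacna1s was at 0.0104 FPKM (2 fragments) in tKO GM clone 2 BR2, with the others at 0, a pattern that this rule always flags.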

How the results depend on the processing

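Of 1559 recomputed member values, 1471 kept direction and side of the threshold, 32 fell below it, 19 passed it and 37 changed sign. The cause of these changes was not tested beyond the smaller number of samples or genes. In DM3 the 3 genes lower in tKO cells stayed 3 with voom, median-of-ratios scaling and line averages, and were 2 with only the compared libraries in the fit, where Cacnb1 lost its call (limma adjusted p = 0.0649). They became 0 without control population 1, 1 without control population 2, 0 within BR1 alone (chosen after seeing the data), and 3 to 4 with any 1 library left out. Over all tested genes 161 were called lower in the main fit. Without population 1, without population 2 and within BR1 alone the number was 35, 34 and 29. The 5 genes lower in BR2 of tKO DM3 became 2 with a pseudocount of 0.1, 3 with no filter, 3 with a filter at 5 FPKM, and 0 to 5 with 1 library left out. Without tKO clone 2, 1 gene was called lower in GM, 1 in the change of tKO cells and 1 in the genotype by stage test, each against 0. Within BR2 alone 1 gene fell in tKO cells. Leaving out 1 library gave 0 to 1 lower in GM, 0 to 1 falling in tKO cells, and 0 to 3 for both the genotype by stage and the genotype by BR tests.

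The labels do not say that BR numbers pair libraries, and same-numbered libraries of the 2 genotypes did not all deviate together (r from 0.0955 to 0.452 over 8 pairs in GM, and from -0.224 to 0.558 over 8 in DM3). With the BR number as a replicate block, 1 gene was called in the genotype by stage test (Ryr1, limma adjusted p = 0.0429). With the block within each stage, 2 were called there (Ryr1 and Cacnb1) and 1 in GM (Cacng1, limma adjusted p = 0.0482), and 3 stayed lower in DM3.

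Changes of sign were as follows. Without control population 1 the GM differences of Ryr1, Atp2a1 and Stac3 were 0.0023, 0.0025 and 0.088, and Casq2 was at 0.098 in DM3 and 0.097 by stage. Without tKO clone 1 Atp2a2 and Stac3 were at 0.018 and 0.015 in GM and Casq2 at 0.14 in DM3. Without tKO clone 2 Casq2 was at -0.16 in GM. Within BR1 Atp2a1 and Stac3 were at 0.11 and 0.069 in GM, Casq2 and Stac3 at 0.60 and 0.23 in DM3 and at 0.36 and 0.16 by stage. Within BR2 Cacnb1 and Casq2 were at 0.049 and -0.13 in GM, and the control change of Atp2a2 was -0.23. With 1 library left out, GM ranges were -0.24 to 0.018 (Atp2a1), -0.13 to 0.026 (Cacnb1), -0.061 to 0.13 (Casq2), -0.018 to 0.0058 (Ryr1) and -0.085 to 0.028 (Stac3). Casq2 ran from -0.51 to 0.21 in DM3, from -0.57 to 0.16 by stage and from -0.24 to 0.44 between BR1 and BR2 in control DM3. Cacng1 and Stac3 by stage ran from -0.044 to 0.60 and from -0.47 to 0.0056. Atp2a2 ran from -0.026 to 0.15 in the control change, from -0.72 to 0.29 between BR1 and BR2 in tKO DM3, and from -0.22 to 0.79 in the genotype by BR test.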

Other observations

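Of the pathway genes under the filter, 1 is given here after its values were seen. Ryr2, the ryanodine receptor best known from cardiac muscle, had 0.439, 0.624, 0.566 and 0.860 FPKM in control DM3 (282 to 594 fragments) and 0.0723, 0.0455, 0.135 and 0.183 FPKM in tKO DM3 (22 to 96 fragments). Each tKO DM3 library was below each control, and the DM3 level was far below that of Ryr1. In GM each tKO library was also below each control (0.0408 to 0.121 FPKM in control and 0.0120 to 0.0386 in tKO), where Ryr1 overlapped. These GM values rest on 24 to 66 fragments in control and 6 to 20 in tKO libraries. The share of all tested genes lower without overlap in GM is not given here. Of all tested genes 4.3% were lower without overlap in DM3. For Ryr2 no test was made.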
